A study of Rattus norvegicus with 6 samples.

Results

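The enzymes of cholesterol synthesis were measured in dorsal root ganglia (DRG, the clusters of sensory nerve cell bodies beside the spinal cord) of wild-type rats. The 8 enzymes were the rows of the deposited count table whose gene symbol was Hmgcs1, Idi1, Fdps, Fdft1, Sqle, Lss, Cyp51 or Dhcr7, and all 8 were found among its 22864 genes. The rule used symbols and no levels, but the 8 were chosen with earlier results of these data known. The table held 6 bulk RNA-seq libraries of the L4 to L6 ganglia on the operated side, 2 in each of 3 groups, taken on day 7. Sham+Veh rats had the anaesthesia without the ring and received vehicle. CPIP+Veh rats wore a tight ring above the ankle of a hind limb for 3 h, the CPIP (chronic post-ischaemia pain) model, and received vehicle. CPIP+ETA rats had the same ring and received etanercept, a soluble receptor that binds tumour necrosis factor. Injections were intrathecal, daily, and began 2 days after the procedure. The labels give the ring size for male rats and no strain, age or etanercept dose. They do not say whether libraries of a group came from separate rats, so p-values measure only the spread between these libraries, which may be technical.

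Cholesterol is built from acetyl-CoA through mevalonate, farnesyl diphosphate, squalene and lanosterol. Transcription of most of these enzymes is driven by the sterol-sensing factor SREBP2, which is released from the endoplasmic reticulum when membrane cholesterol is low and acts together with NF-Y and Sp1 at promoters. In peripheral nerve, Schwann cells need large amounts of cholesterol to build myelin, and they make most of it themselves.

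No enzyme differed between the 3 groups by the test used. Of the 24 tests (8 enzymes in 3 comparisons), 0 passed an adjusted p of 0.05 by edgeR's quasi-likelihood test, beside 0.0193% of all genes tested in CPIP+Veh against Sham+Veh, 0.0% in CPIP+ETA against CPIP+Veh and 0.0193% in CPIP+ETA against Sham+Veh. An unadjusted edgeR p under 0.05 was reached by 0 of the 24, beside 4.93%, 5.14% and 6.38% of all genes in that order. DESeq2 called 0 of the 8 in each comparison (0.315%, 0.135% and 0.322% of all genes), and so did limma-voom (0.0129%, 0.0% and 0.00644%). The 95% intervals of 22 of the 24 differences lay within 1.5-fold in either direction, and all 24 lay within 2-fold.

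Promoter sequences are shown for 4 of the 8 enzymes. Hmgcs1 and Cyp51 are the pair whose levels varied most alike over the libraries by Pearson's r, though not by rank. Idi1 and Fdps had the highest fold changes over sham. RefSeq promoters come from the GRCr8 assembly, while the data name Rnor_6.0, and the table has entries for 6 of the 8 enzymes; Fdft1 and Sqle have none there. Each sequence runs from 250 bases before to 50 bases after the annotated start, 5′ to 3′ on the strand of the gene. Capitals mark an NF-Y box (CCAAT, or ATTGG for the other strand) or an Sp1 box (GGGCGG, or CCGCCC for the other strand). The positions in GRCr8 are chr2:53382054-53382353 (+) for Hmgcs1, chr4:30991443-30991742 (+) for Cyp51, chr17:66547475-66547774 (-) for Idi1 and chr2:176804767-176805066 (-) for Fdps.
Hmgcs1: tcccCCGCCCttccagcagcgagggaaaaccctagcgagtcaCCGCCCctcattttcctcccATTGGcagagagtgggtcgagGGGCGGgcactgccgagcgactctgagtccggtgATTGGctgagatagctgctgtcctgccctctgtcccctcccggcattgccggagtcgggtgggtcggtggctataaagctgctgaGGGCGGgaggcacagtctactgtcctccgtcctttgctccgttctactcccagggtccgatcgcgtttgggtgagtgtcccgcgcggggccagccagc
Cyp51: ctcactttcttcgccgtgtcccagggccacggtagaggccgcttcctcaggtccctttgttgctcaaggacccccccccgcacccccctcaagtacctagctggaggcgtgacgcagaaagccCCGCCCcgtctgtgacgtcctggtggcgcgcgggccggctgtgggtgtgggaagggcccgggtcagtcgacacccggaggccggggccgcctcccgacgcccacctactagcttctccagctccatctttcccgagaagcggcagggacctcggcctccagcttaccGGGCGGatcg
Idi1: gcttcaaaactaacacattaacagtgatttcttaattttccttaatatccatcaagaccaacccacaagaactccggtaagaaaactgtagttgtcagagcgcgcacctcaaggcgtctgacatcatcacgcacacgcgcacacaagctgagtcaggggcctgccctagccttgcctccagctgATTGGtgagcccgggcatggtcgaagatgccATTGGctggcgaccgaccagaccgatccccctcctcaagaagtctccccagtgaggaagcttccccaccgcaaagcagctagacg
Fdps: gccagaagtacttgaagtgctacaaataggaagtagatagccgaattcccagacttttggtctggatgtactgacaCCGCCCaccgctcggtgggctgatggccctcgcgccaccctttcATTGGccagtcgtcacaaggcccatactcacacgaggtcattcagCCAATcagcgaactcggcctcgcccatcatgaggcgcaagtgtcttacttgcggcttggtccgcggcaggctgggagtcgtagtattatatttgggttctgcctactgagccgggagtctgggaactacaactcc

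Both strands of every promoter in the table were searched. The sterol regulatory element core TCACNCCAC (N is any base; GTGGNGTGA on the other strand) matched 0 of the 6 promoters, beside 1.13% of the 27457 promoters in the table, which says only that these letters are not in this window. An NF-Y box was in 4 of 6 promoters, those of Hmgcs1, Idi1, Fdps and Lss, beside 37.7% of all promoters. An Sp1 box was in 5 of 6, all but that of Idi1, beside 34.9% of all promoters. In the promoter of Dhcr7 the 2 Sp1 boxes overlap. Among the other enzymes of the pathway with an entry, 10 of 11 had an NF-Y box, 10 had an Sp1 box and 0 had the sterol regulatory element core.

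The libraries held 18285309 to 19981310 counts and 17782 to 17933 detected genes. Levels below are TMM-scaled CPM, that is counts scaled to the library total after edgeR's correction for library composition. The table gives no gene lengths, so levels are compared between libraries and never between genes. Of 15531 genes tested, edgeR called 3, 0 and 3 in the same order of comparisons, while 766, 799 and 991 had an unadjusted p under 0.05. DESeq2 called 49, 21 and 50, and limma-voom 2, 0 and 1. Markers of sensory neurons (9 genes, summed level 18921 to 21001 CPM) and of Schwann cell myelin (10 genes, 9750 to 14637 CPM) were present in every library, none at 0. In bulk tissue, fewer cells of a type and less RNA per cell cannot be told apart.

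**Figure D1:**
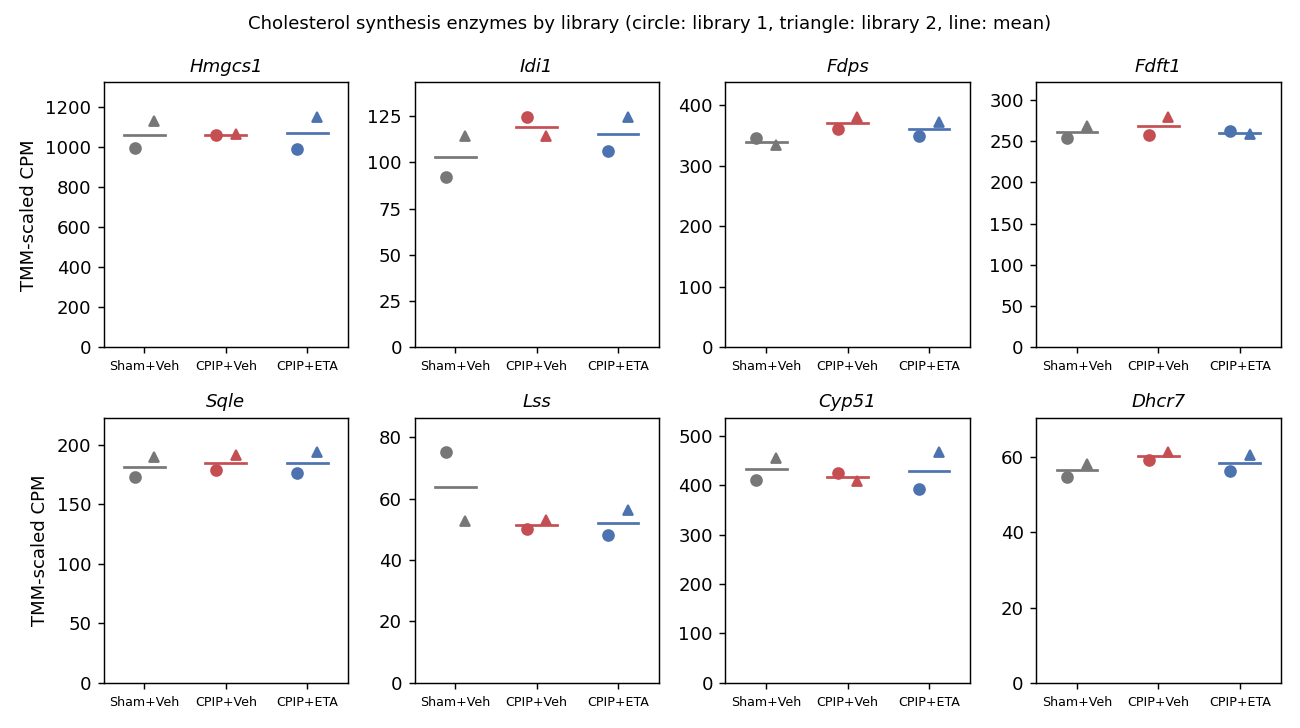
Level of each of the 8 enzymes in TMM-scaled CPM (vertical axis, from 0, with its own scale in each panel) in the 3 groups. A circle is library 1, a triangle library 2 and a line their mean; Fdps is higher in all 4 CPIP libraries than in both sham libraries, and the high Lss value is Sham+Veh library 1.

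Hmgcs1, the cytosolic synthase that joins acetyl-CoA to acetoacetyl-CoA and opens the mevalonate route, was at 994 and 1130 CPM in the Sham+Veh libraries, 1058 and 1062 CPM in CPIP+Veh, and 989 and 1150 CPM in CPIP+ETA. The sham and etanercept groups each held a low and a high library, and the CPIP+Veh libraries lay between them. The log2 fold change was -0.0021 (SE 0.089) for CPIP+Veh against Sham+Veh, 0.013 (SE 0.089) for CPIP+ETA against CPIP+Veh and 0.010 (SE 0.089) for CPIP+ETA against Sham+Veh (edgeR adjusted p 0.998, 0.991 and 0.991). The sign of the first turned under several scalings and tools.

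Idi1, the isomerase that interconverts the 2 forms of the isoprene unit, was at 91.9 and 114.3 CPM in Sham+Veh, 124.4 and 114.4 CPM in CPIP+Veh, and 106.1 and 124.6 CPM in CPIP+ETA. Both CPIP+Veh libraries lay above both sham libraries, the closest pair by little (114.4 against 114.3 CPM), and the etanercept libraries overlapped both other groups. The log2 fold change was 0.21 (SE 0.12; 95% interval -0.079 to 0.50) for CPIP+Veh against Sham+Veh, the largest of the 8 in the positive direction, with an edgeR p of 0.127 and an adjusted p of 0.948. It was 0.071 without Sham+Veh library 1 and 0.38 without Sham+Veh library 2. For CPIP+ETA it was -0.050 (SE 0.12) against CPIP+Veh and 0.16 (SE 0.12) against Sham+Veh.

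Fdps, the synthase of farnesyl diphosphate from which sterols and prenyl groups both derive, was at 346.4 and 334.3 CPM in Sham+Veh, 361.7 and 381.0 CPM in CPIP+Veh, and 350.2 and 372.1 CPM in CPIP+ETA. All 4 CPIP libraries lay above both sham libraries, and the CPIP groups overlapped. The log2 fold change was 0.13 (SE 0.055; 95% interval -0.0065 to 0.26) for CPIP+Veh against Sham+Veh, with the lowest unadjusted edgeR p of the 24 tests, 0.0592, and an adjusted p of 0.938. It was -0.040 (SE 0.055) for CPIP+ETA against CPIP+Veh and 0.085 (SE 0.055) for CPIP+ETA against Sham+Veh.

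Fdft1, squalene synthase and the first enzyme committed to sterols, was at 253.7 and 267.9 CPM in Sham+Veh, 257.2 and 279.3 CPM in CPIP+Veh, and 261.8 and 259.0 CPM in CPIP+ETA. The groups overlapped in every comparison, with log2 fold changes of 0.041, -0.043 and -0.0023 in the same order of comparisons (SE 0.059 each). Sqle, the oxygen-dependent squalene epoxidase, was at 172.8 and 189.5 CPM in Sham+Veh, 179.0 and 191.4 CPM in CPIP+Veh, and 176.7 and 193.8 CPM in CPIP+ETA. Library 2 was above library 1 in all 3 groups, and the groups overlapped. The log2 fold changes of Sqle were 0.032, 0.00012 and 0.032 (SE 0.074 each).

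Lss, which folds squalene epoxide into lanosterol, was at 75.1 and 52.8 CPM in Sham+Veh, 50.2 and 52.9 CPM in CPIP+Veh, and 48.1 and 56.2 CPM in CPIP+ETA. A single library, Sham+Veh library 1, stood above the rest, and the other sham library lay within the range of the CPIP libraries. The log2 fold change was -0.31 (SE 0.16; 95% interval -0.70 to 0.077) for CPIP+Veh against Sham+Veh, with an edgeR p of 0.0988 and an adjusted p of 0.947. Without Sham+Veh library 1 it was -0.027, and without Sham+Veh library 2 it was -0.54. For CPIP+ETA against Sham+Veh it was -0.30 (SE 0.16), and -0.010 without Sham+Veh library 1; against CPIP+Veh it was 0.015 (SE 0.16). Sham+Veh library 1 also had the highest summed level of the 3 hepatocyte markers Alb, Apoa1 and Ttr, at 97.9 CPM. The other libraries were at 3.78 to 39.7 CPM. Summed smooth muscle and adipocyte markers were highest in Sham+Veh library 1 too, at 106 and 13.96 CPM. The part of any of these markers' cells in the Lss value was not tested.

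Cyp51, the lanosterol demethylase, was at 411.5 and 456.0 CPM in Sham+Veh, 425.5 and 409.0 CPM in CPIP+Veh, and 392.5 and 466.9 CPM in CPIP+ETA. The etanercept group held both the lowest and the highest library. The log2 fold changes were -0.056, 0.042 and -0.014 (SE 0.092 each). Dhcr7, the reductase that makes cholesterol from its last precursor and is mutated in human Smith-Lemli-Opitz syndrome, was at 54.7 and 58.1 CPM in Sham+Veh, 59.2 and 61.3 CPM in CPIP+Veh, and 56.3 and 60.5 CPM in CPIP+ETA. The CPIP+Veh libraries lay above both sham libraries and the etanercept libraries overlapped both groups, with log2 fold changes of 0.094, -0.045 and 0.049 (SE 0.064 each).

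Both CPIP+Veh libraries were above both sham libraries for 3 of the 8 enzymes, Idi1, Fdps and Dhcr7, beside 17.6% of all genes tested that were higher without overlap. For CPIP+ETA against Sham+Veh this held for 1 of 8, Fdps, beside 17.2% of all genes. For CPIP+ETA against CPIP+Veh it held for 0 of 8, beside 15.7% of all genes, and in no comparison was an enzyme lower without overlap (19.5%, 16.9% and 18.5% of all genes in the order of comparisons above). The median log2 fold change of the 8 was 0.036, -0.020 and 0.021, beside -0.0031, -0.0016 and -0.0020 over all genes tested. The comparisons share libraries, so these counts are not independent of each other. By group mean, CPIP+Veh was highest for Idi1, Fdps, Fdft1 and Dhcr7 and lowest for Lss, Cyp51 and, by a difference whose sign turned under other scalings, Hmgcs1, and no neighbouring groups in these orders differed by the test.

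**Figure D2:**
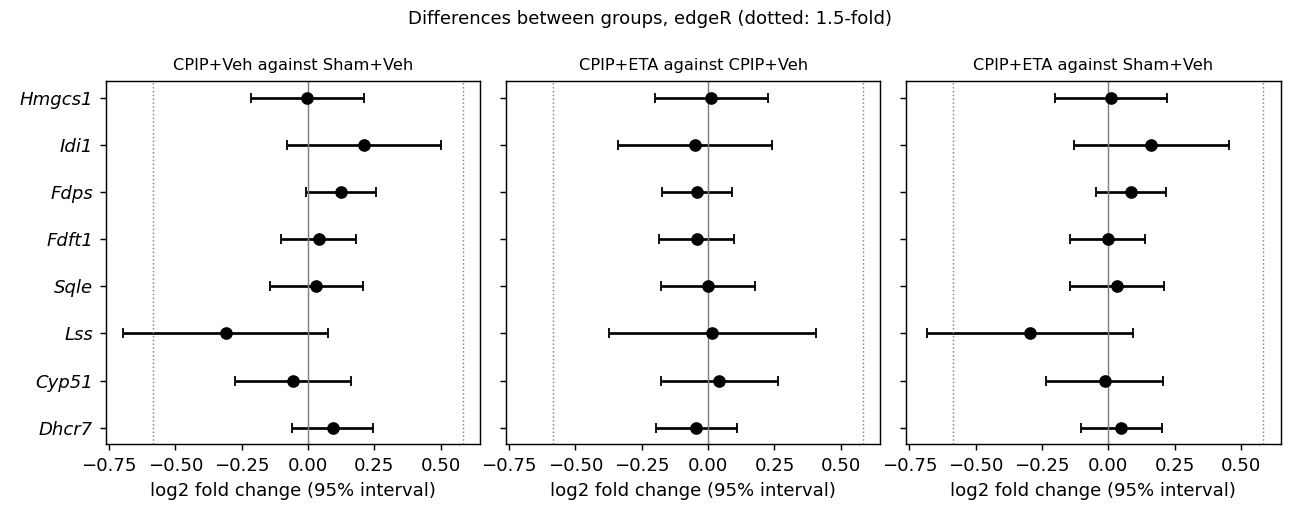
Log2 fold change (horizontal axis) of each enzyme in the 3 comparisons, with the 95% interval from edgeR as the bar and 1.5-fold as dotted lines. All 24 intervals include 0, and the 2 that cross a dotted line belong to Lss.

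The enzymes had different spreads inside groups, each from 2 libraries a group, and differences between these spreads were not tested. The coefficient of variation (CV) within groups was 3.57% for Fdps, 4.05% for Fdft1 and 4.08% for Dhcr7, near the median of 4.31% over the 4455 genes with a mean of at least 50 CPM. It was 5.99% for Sqle, 8.06% for Hmgcs1, 8.38% for Cyp51, 11.5% for Idi1 and 15.7% for Lss. For Lss the standard deviation was 15.8 CPM in Sham+Veh, beside 1.90 CPM in CPIP+Veh and 5.72 CPM in CPIP+ETA. Counting error alone was taken at each enzyme's mean count over the libraries. It was 0.702% for Hmgcs1, 1.11% for Cyp51, 1.21% for Fdps and 1.41% for Fdft1. For Sqle it was 1.69%, for Idi1 2.16%, for Dhcr7 3.00% and for Lss 3.07%. The CV was above this counting error for all 8 enzymes, by least for Dhcr7.

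Some libraries were low or high for most of the 8 enzymes. The share of all genes low or high in each library was not counted. Relative to each gene's mean over the 6 libraries, 8 of 8 enzymes were low in CPIP+ETA library 1 and 7 of 8 in Sham+Veh library 1, all but Lss. In CPIP+ETA library 2 they were high for 7 of 8 and in CPIP+Veh library 2 for 6 of 8. Sham+Veh library 2 (5 of 8 high) and CPIP+Veh library 1 (3 of 8 high) lay near the mean. The median relative log2 level of the 8 was -0.070 and 0.027 in the sham libraries, -0.0037 and 0.045 in the vehicle-treated CPIP libraries, and -0.067 and 0.068 in the etanercept libraries. Library 2 was the higher for 6 of the 8 enzymes in Sham+Veh, 6 in CPIP+Veh and 7 in CPIP+ETA.

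The other enzymes of the route were mostly low and high in the same libraries. Their list too was chosen with earlier results of these data known, and the share of all genes was not counted here either. Of the 13 described here, 11 were low in Sham+Veh library 1 and 10 in CPIP+ETA library 1, while 12 were high in CPIP+ETA library 2 and 11 in CPIP+Veh library 2. Schwann cell myelin genes followed this order in part. All 10 were low in Sham+Veh library 1 and in CPIP+ETA library 1, with medians of -0.11 and -0.29, and 9 of 10 were high in CPIP+ETA library 2. Both CPIP+Veh libraries departed from it. In library 1, 9 of the 10 myelin genes were high, with the highest median of the 6 libraries (0.17), while 5 of the 8 enzymes and 8 of the 13 others were low. In library 2, 8 of the 10 myelin genes were low while 6 of the 8 enzymes were high. Sensory neuron markers were high for 8 of 9 in CPIP+ETA library 1 and low for 8 of 9 in CPIP+ETA library 2. Satellite glia markers were high for 7 of 8 in CPIP+ETA library 2, and in the other libraries for 2 to 4 of 8.

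**Figure D3:**
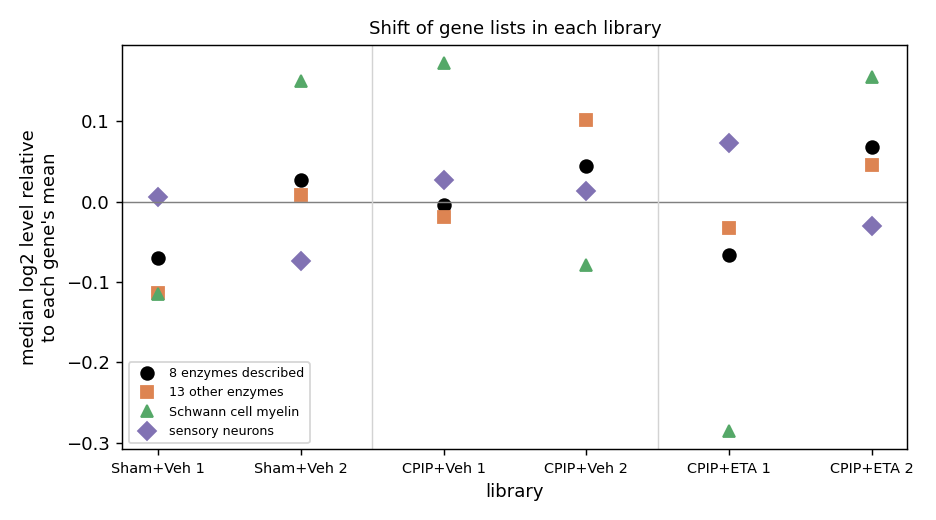
Median log2 level of gene lists in each of the 6 libraries (horizontal axis) relative to each gene's mean over the libraries (vertical axis). Circles are the 8 enzymes, squares the 13 other enzymes, triangles 10 myelin genes and diamonds 9 sensory neuron markers; the enzymes are lowest in Sham+Veh library 1 and CPIP+ETA library 1.

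Pairs of enzymes were correlated over the 6 libraries on log2 levels, with exact permutation p-values and Benjamini-Hochberg adjustment over the 28 pairs. Hmgcs1 and Cyp51 varied most alike by Pearson's r, at 0.93 (exact permutation p 0.0167, adjusted p 0.263). Their Spearman's rho was 0.83 (exact permutation p 0.0583, adjusted p 0.272), below that of 2 pairs given next. Without the 2 libraries farthest from the median of Hmgcs1, both of CPIP+ETA, r was 0.83. Hmgcs1 and Sqle had r 0.87 and rho 0.89 (exact permutation p 0.0292 and 0.0333; r 0.80 without the same 2 libraries). Idi1 and Dhcr7 had r 0.85 and rho 0.83 (exact permutation p 0.0236 and 0.0583), and r 0.56 without Sham+Veh library 1 and CPIP+ETA library 2. Sqle and Dhcr7 had r 0.85 and rho 0.89 (exact permutation p 0.0375 and 0.0333), and r 0.68 without those 2 libraries. These 4 pairs had an unadjusted p under 0.05 for r, and 0 of 28 passed after adjustment. Of the 21 pairs without Lss, 19 had r above 0, with a median of 0.60, and of the 7 pairs with Lss, 6 had r below 0. By rank the Lss pairs did not share that sign, since 5 of the 7 had rho above 0. For Sqle and Lss, r was -0.35 over the 6 libraries and 0.96 without Sham+Veh library 1, where Lss was highest, and CPIP+ETA library 2. The groups were pooled in these correlations, since 2 libraries a group are too few for a correlation within groups.

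**Figure D4:**
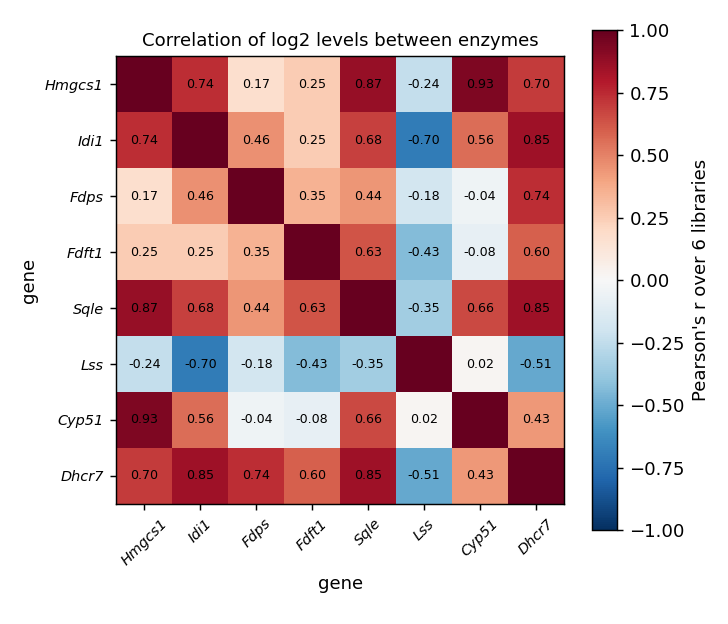
Pearson's r between the log2 levels of each pair of the 8 enzymes over the 6 libraries, as colour and number. Hmgcs1 and Cyp51 have the highest value, 0.93, and 6 of the 7 pairs with Lss lie below 0, although 5 of these 7 have Spearman's rho above 0.

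Against the summed level of the 10 Schwann cell myelin genes, Cyp51 had r 0.86 (exact permutation p 0.025, adjusted over 8 enzymes 0.2), rho 0.83 (exact permutation p 0.0583, adjusted p 0.467) and r 0.75 without Sham+Veh library 2 and CPIP+ETA library 1. Hmgcs1 had r 0.79 (exact permutation p 0.0917, adjusted p 0.367) and rho 0.60 (exact permutation p 0.242, adjusted p 0.919), and r 0.60 without those 2 libraries. The other 6 enzymes had r from -0.12 for Fdft1 to 0.53 for Idi1, and none of the 8 passed after adjustment. The summed myelin level was 12145 and 14637 CPM in Sham+Veh, 14257 and 11771 CPM in CPIP+Veh, and 9750 and 14104 CPM in CPIP+ETA. Its part in the spread of Hmgcs1 and Cyp51 was not tested.

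Genes were also ranked by how closely they followed the mean z-score of the 8 enzymes over the 6 libraries, among 11206 genes with a mean of at least 5 CPM and a named symbol. That mean was -0.73 and 0.20 in the sham libraries, -0.04 and 0.55 in the vehicle-treated CPIP libraries, and -0.73 and 0.75 in the etanercept libraries. The 10 closest were Arpc5l (r 0.991), Carnmt1, Chic2, Eme2, Crispld1, Manea, Lmo1, Rpl7, Mettl25 and Ankrd46 (r 0.969). Their highest library was from 1.02-fold (Ankrd46) to 1.35-fold (Crispld1) the lowest, and 1.06-fold for Arpc5l. Some of them thus hardly varied, and r does not measure the size of a variation. None of these 10 is an enzyme of the pathway, and 99 of the 11206 genes had r over 0.9. The closest other enzymes were Pmvk, phosphomevalonate kinase, with r 0.95 (rank 27), and Nsdhl, a sterol dehydrogenase, with r 0.90 (rank 91). Of the 13 other enzymes, 12 had r above 0, with a median of 0.71 beside about 0 over all genes ranked. The exception was Acat1, the mitochondrial thiolase, with r -0.59.

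Along the route, 21 enzymes are described, the 8 and 13 others. By edgeR, DESeq2 and limma-voom, 0 of the 21 passed the adjusted threshold in each comparison, and 0, 0 and 1 had an unadjusted edgeR p under 0.05. Against Sham+Veh, 15 of 21 were above 0 in CPIP+Veh and 15 of 21 in CPIP+ETA (49.0% and 49.3% of all genes), and between the CPIP groups 9 of 21 were (49.6% of all genes). The 13 others alone had medians of 0.091, -0.018 and 0.076. CPIP+Veh libraries lay below sham without overlap for 1 of the 13, Lbr (19.5% of all genes), and above sham for 5 (17.6% of all genes). Among these 5 were Acat2, the cytosolic thiolase at the entry, Mvk, which phosphorylates mevalonate, and Mvd, which decarboxylates mevalonate diphosphate.

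Acat2 was at 103.2 and 102.3 CPM in Sham+Veh, 109.1 and 120.7 CPM in CPIP+Veh, and 114.9 and 124.7 CPM in CPIP+ETA. All 4 CPIP libraries lay above both sham libraries. Its log2 fold change over sham was 0.16 (SE 0.071; edgeR p 0.0583) in CPIP+Veh and 0.22 (SE 0.071; edgeR p 0.0178, adjusted p 0.682) in CPIP+ETA, the only unadjusted p under 0.05 among the 21 enzymes. Mvk had log2 fold changes over sham of 0.18 (SE 0.077) and 0.11 (SE 0.077), and Mvd of 0.19 (SE 0.084) and 0.14 (SE 0.084), in the same order. Tm7sf2, a sterol reductase, was at -0.16 (SE 0.10) for CPIP+ETA against Sham+Veh. Between the CPIP groups, Lbr, which shares the Tm7sf2 step, was at 0.23 (SE 0.14), Sc5d, a sterol desaturase, at -0.099 (SE 0.073), and Msmo1, a sterol oxidase, at -0.12 (SE 0.12).

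**Figure D5:**
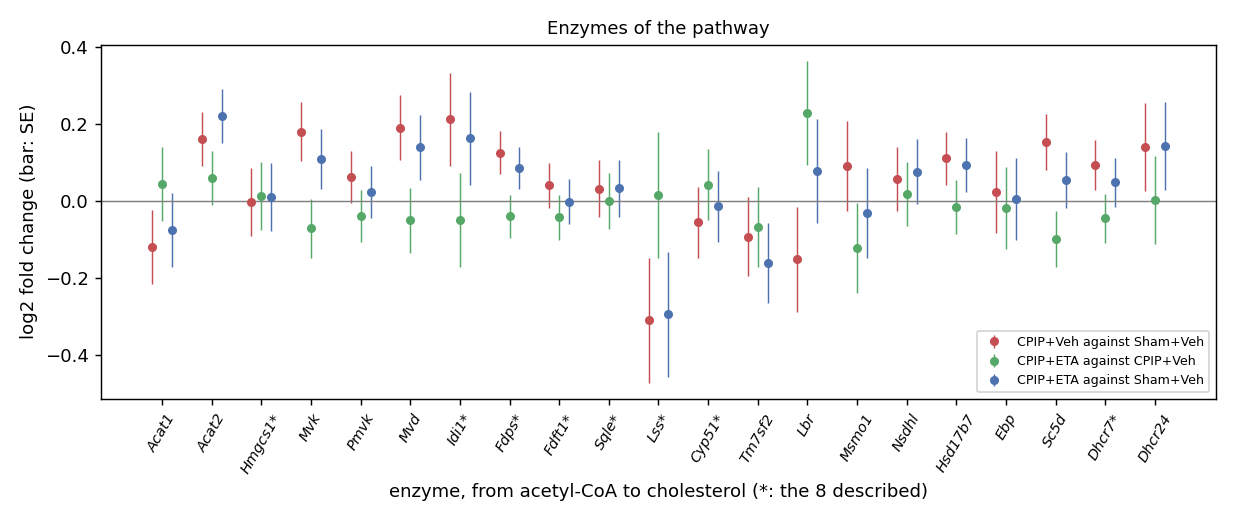
Log2 fold change (vertical axis, bar: SE) of 21 enzymes from acetyl-CoA on the left to cholesterol on the right, in the 3 comparisons; an asterisk marks the 8 described. Values run from -0.31 (Lss) to 0.23 (Lbr), and no enzyme passed the adjusted threshold.

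Among 12 genes of SREBP control, 0 passed the adjusted threshold by edgeR, DESeq2 or limma-voom, and 4, 0 and 2 had an unadjusted edgeR p under 0.05 (4.93%, 5.14% and 6.38% of all genes). Of the 4, 2 were higher and 2 lower in CPIP+Veh, and of the 2, 1 was higher and 1 lower in CPIP+ETA. Of the 12, 6, 4 and 6 were above 0 in the 3 comparisons (49.0%, 49.6% and 49.3% of all genes). Srebf2, which encodes SREBP2, was at 136.7 and 134.8 CPM in Sham+Veh, 147.7 and 160.7 CPM in CPIP+Veh, and 152.3 and 150.5 CPM in CPIP+ETA. All 4 CPIP libraries lay above both sham libraries. Its log2 fold change was 0.18 (SE 0.058; edgeR p 0.0163, adjusted p 0.938) for CPIP+Veh against Sham+Veh, 0.16 (SE 0.058; p 0.0306, adjusted p 0.759) for CPIP+ETA against Sham+Veh, and -0.026 (SE 0.057) between the CPIP groups.

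Srebf1, whose product mainly drives fatty acid genes, was at 93.9 and 98.6 CPM in Sham+Veh, 87.0 and 86.2 CPM in CPIP+Veh, and 79.3 and 81.1 CPM in CPIP+ETA. The groups did not overlap, with sham highest and etanercept lowest. The log2 fold change was -0.15 (SE 0.053; edgeR p 0.026, adjusted p 0.938) for CPIP+Veh against Sham+Veh, -0.11 (SE 0.054; p 0.0808, adjusted p 0.938) for CPIP+ETA against CPIP+Veh, and -0.26 (SE 0.054; p 0.00203, adjusted p 0.504) for CPIP+ETA against Sham+Veh.

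Insig1, which holds SREBP in the endoplasmic reticulum when sterols are plentiful, was at 183.9 and 192.7 CPM in Sham+Veh, 203.5 and 204.2 CPM in CPIP+Veh, and 191.2 and 210.9 CPM in CPIP+ETA. Its CPIP+Veh libraries lay above sham and its etanercept libraries overlapped both groups, with log2 fold changes of 0.11, -0.020 and 0.094 (SE 0.062 each). Fads2, a fatty acid desaturase, was at -0.16 (SE 0.065; edgeR p 0.0438, adjusted p 0.938) for CPIP+Veh against Sham+Veh. Mbtps2, a protease that releases SREBP from the membrane, was at 0.38 (SE 0.15; edgeR p 0.0445, adjusted p 0.938) for CPIP+Veh and 0.26 (SE 0.16) for CPIP+ETA against Sham+Veh. Rnf139 was at -0.12 (SE 0.080) between the CPIP groups.

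A further 4 lists around the pathway gave 0 genes past the adjusted threshold in each comparison by edgeR, DESeq2 and limma-voom, and 2, 1 and 3 of 46 with an unadjusted edgeR p under 0.05, beside 4.93%, 5.14% and 6.38% of all genes. Of 12 genes of uptake and transport, 5, 9 and 6 were above 0. For CPIP+Veh against Sham+Veh, Npc1 was at -0.11 (SE 0.058), Stard3 at -0.12 (SE 0.076) and Lrp1 at -0.10 (SE 0.075). Between the CPIP groups, Vldlr was at -0.21 (SE 0.11), Npc1 at 0.080 (SE 0.058) and Gramd1b at 0.13 (SE 0.12). For CPIP+ETA against Sham+Veh, Lrp8 was at 0.12 (SE 0.067), Npc2 at -0.11 (SE 0.068) and Gramd1a at 0.076 (SE 0.050). Of 15 genes of efflux, storage, oxidation and targets of the sterol receptor LXR, 7, 6 and 6 were above 0.

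The lipid carrier Apod was at 1250 and 1340 CPM in Sham+Veh, 1227 and 1476 CPM in CPIP+Veh, and 833 and 1115 CPM in CPIP+ETA. Both etanercept libraries lay below the other 4. Its log2 fold change was -0.47 (SE 0.15; edgeR p 0.0151, adjusted p 0.938) for CPIP+ETA against CPIP+Veh and -0.41 (SE 0.15; p 0.0271, adjusted p 0.752) against Sham+Veh. The summed level of 5 fibroblast markers was also lowest in an etanercept library, at 1672 and 2181 CPM beside 2132 to 2803 CPM in the others, and its part in the Apod value was not tested. Against sham, the LXR targets Mylip and Lpcat3 were at -0.19 (SE 0.093) and -0.20 (SE 0.072; edgeR p 0.0269, adjusted p 0.938) in CPIP+Veh and at -0.24 (SE 0.093; p 0.0374, adjusted p 0.768) and -0.17 (SE 0.072) in CPIP+ETA. Apoe, the main lipid carrier of glia, was at -0.11 (SE 0.060) in CPIP+Veh against sham. Between the CPIP groups the exporters Abca1 and Abcg1 were at -0.12 (SE 0.049) and 0.14 (SE 0.074).

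Of 9 genes of the isoprenoid branch, which uses farnesyl diphosphate for other products, 6, 4 and 4 were above 0. Coq2 and Dhdds were at 0.14 (SE 0.081) and 0.083 (SE 0.054) in CPIP+Veh against sham and at 0.14 (SE 0.081) and 0.11 (SE 0.054) in CPIP+ETA against sham. Fntb was at 0.11 (SE 0.092) in CPIP+Veh against sham and -0.18 (SE 0.092) between the CPIP groups, where Nus1 was at -0.051 (SE 0.054) and Pggt1b at -0.11 (SE 0.15). Pggt1b was at -0.15 (SE 0.15) for CPIP+ETA against sham. Of 10 genes of fatty acid synthesis that were tested, 3, 5 and 5 were above 0, with Acly at 0.081 (SE 0.052) and Scd at -0.094 (SE 0.072) in CPIP+Veh against sham and Acaca at 0.13 (SE 0.062), Fads1 at -0.071 (SE 0.049) and Fads2 at 0.072 (SE 0.065) between the CPIP groups. For CPIP+ETA against sham, Fads1 was at -0.13 (SE 0.049; edgeR p 0.032, adjusted p 0.76), Scd2 at -0.11 (SE 0.058) and Me1 at -0.090 (SE 0.056).

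Of 65 marker entries of cell types, 0 passed the edgeR adjusted threshold in each comparison. An unadjusted edgeR p under 0.05 was found for 15, 12 and 17 of them (4.93%, 5.14% and 6.38% of all genes). DESeq2 called 3, 2 and 3 (0.315%, 0.135% and 0.322% of all genes), and limma-voom 0. All 4 smooth muscle markers were lower in CPIP+Veh than sham without overlap (19.5% of all genes), with summed levels of 106 and 92.0 CPM in Sham+Veh, 49.7 and 59.7 CPM in CPIP+Veh, and 60.7 and 80.6 CPM in CPIP+ETA. Summed endothelial markers (6 genes) were at 157 and 163 CPM in Sham+Veh and 124 to 146 CPM in the CPIP libraries. Red blood cell markers (4 genes) were at 308 and 182 CPM in CPIP+ETA and 28.1 to 117 CPM in the others. Macrophage markers (8 genes) were at 220 and 231 CPM in CPIP+ETA and 166 to 197 CPM in the others. Cd163 and Mrc1, scavenger and mannose receptors named after their values were seen, held most of that difference, with group means of 6.49 and 26.4 CPM in CPIP+Veh and 20.4 and 47.4 CPM in CPIP+ETA. Between the CPIP groups the other 6 were at log2 fold changes from -0.14 (Cd68) to 0.23 (C1qa). Summed satellite glia markers ran from 5304 to 5907 CPM. Skeletal muscle markers (4 genes) were at 14.0 and 21.9 CPM in Sham+Veh, 13.3 and 54.8 CPM in CPIP+Veh, and 8.81 and 36.2 CPM in CPIP+ETA. Library 2 was thus the higher in all 3 groups, as it was for most of the 8 enzymes. The part of muscle in the enzyme levels was not tested. Adipocyte markers (7 genes) were low, at 13.96 and 9.52 CPM in Sham+Veh and 4.05 to 7.18 CPM in the CPIP libraries.

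RefSeq names 1 pseudogene copy of Idi1, 5 of Fdps and 1 of Cyp51, and the sources used do not say how reads shared with such copies were counted. The counts of Idi1, Fdps and Cyp51 are uncertain to that extent. In the same annotation Idi1 overlaps the protein-coding gene Wdr37, and Hmgcs1, Fdps and Fdft1 overlap non-coding genes. The use of strand in counting is not stated, so it is not known whether reads of overlapping genes were told apart. Whether the annotation used for counting held these overlaps is not known either.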

How the data were processed

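RNA from the L4 to L6 ganglia was sequenced on the BGISEQ-500, per the labels' protocols, which require a RIN of at least 8.0. The authors deposited expected counts per gene, which need not be whole (32.7% of values were whole numbers, to within 1e-09). The submitters' processing notes name the build Rnor_6.0; which aligner and counter were used, and how strand and shared reads were treated, is not given in the sources used here.

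Blank cells (2907 genes, blank in every library) were read as 0, and the expected counts were rounded to whole numbers. With edgeR 4.0.16 (R 4.3.3), 15531 genes passed filterByExpr by group (minimum count 10) and entered 1 fit of all 6 libraries, with TMM scaling, group as the only term and the quasi-likelihood F-test; p-values were Benjamini-Hochberg adjusted over all genes and called under 0.05. SE is the absolute log2 fold change over the square root of F. The common biological CV was 10.3%. DESeq2 1.42.0, limma-voom 3.58.1, other scalings and filters, a replicate block and leaving out each library were alternatives. Correlations over libraries used all 720 orders.

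The 8 enzymes and the gene lists were chosen with earlier results of these data known. The genes named by rule are the 8 enzymes, Srebf2 and Insig1, the 3 genes of each list with the lowest p in a comparison, and the 10 genes most like the mean of the enzymes. Some others were named after their values were seen, among them Pmvk, Nsdhl, Acat1, Cd163, Mrc1, Cd68 and C1qa. Some genes of the lists are not reported here and were left out of the lists' counts.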

Additional observations from a re-analysis of the deposited data

How the results depend on the processing

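The 8 enzymes were past the threshold in 0 of 360 alternative tests (smallest adjusted p 0.589), and 44 of these had the opposite sign. DESeq2 called 49, 21 and 50 genes over the whole table in CPIP+Veh against Sham+Veh, CPIP+ETA against CPIP+Veh and CPIP+ETA against Sham+Veh. In the last, limma-voom and a fit of only the groups compared called 1 each. Leaving out each library in turn gave 1 to 3, 0 to 0 and 1 to 2 genes; 1 was called in the first comparison without CPIP+Veh library 2, and 1 in the last without CPIP+Veh library 1, CPIP+Veh library 2 or CPIP+ETA library 1. Where a group kept 1 library, its spread was taken to be that of the others.

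Values near 0 changed sign. Hmgcs1 in CPIP+Veh against Sham+Veh was 0.0011 with RLE scaling and with DESeq2, 0.0080 with upper-quartile scaling, 0.00093 with limma-voom, 0.0041 with no filter and 0.0026 with only the groups compared. Sqle in CPIP+ETA against CPIP+Veh was -0.0095 with upper-quartile scaling, -0.00087 with limma-voom, -0.0017 with no filter and -0.00014 with a filter of 1 CPM in 2 libraries. Fdft1 in CPIP+ETA against Sham+Veh was 0.0012 with RLE scaling and with DESeq2, 0.0019 with no filter and 0.0038 with only the groups compared. The cause was not tested.

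With 1 library left out, the log2 fold change in CPIP+Veh against Sham+Veh ran from -0.085 to 0.095 for Hmgcs1, -0.020 to 0.10 for Fdft1, -0.026 to 0.10 for Sqle, -0.12 to 0.022 for Cyp51 and -0.18 to 0.0048 for Scd. In CPIP+ETA against CPIP+Veh it ran from -0.10 to 0.12 for Hmgcs1, -0.17 to 0.065 for Idi1, -0.085 to 0.0053 for Fdps, -0.097 to 0.018 for Fdft1, -0.069 to 0.068 for Sqle, -0.10 to 0.13 for Lss, -0.089 to 0.16 for Cyp51, -0.098 to 0.0088 for Dhcr7, -0.024 to 0.27 for Gramd1b, -0.093 to 0.051 for Insig1, -0.29 to 0.033 for Msmo1, -0.28 to 0.050 for Pggt1b and -0.082 to 0.036 for Srebf2. In CPIP+ETA against Sham+Veh it ran from -0.098 to 0.12 for Hmgcs1, -0.033 to 0.040 for Fdft1, -0.032 to 0.11 for Sqle, -0.14 to 0.11 for Cyp51 and -0.32 to 0.0076 for Pggt1b. The median of the 8 enzymes ran from -0.011 to 0.099, from -0.093 to 0.066 and from -0.017 to 0.11 in the 3 comparisons.

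The labels do not say whether same-numbered libraries are paired. Over all genes tested, their deviations from the group mean correlated at 0.03, -0.11 and 0.05 between groups. Such a correlation cannot show a shared factor that touches few genes. With the number as a replicate block, 3, 0 and 3 genes were called, 0 of the 8 enzymes, and the medians of the 8 were 0.037, -0.020 and 0.021; Hmgcs1 in CPIP+Veh against Sham+Veh was 0.0021 and Sqle in CPIP+ETA against CPIP+Veh was -0.00045. The lowest count of the 8 enzymes was 955. At each enzyme's mean count over the libraries, counting error alone was at most 3.07%.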
